A study of Agaricus bisporus with 12 samples.

Results

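The mycelium left in mushroom compost after the second harvest was compared with the mycelium left after the first. All samples labelled as after the second flush (2 libraries) were set against all labelled as after the first flush (2 libraries), so 4 of the 12 libraries of the series carry the comparison. A flush is a wave of mushrooms that ripen and are picked together. The fungus was Agaricus bisporus, the white button mushroom, in its commercial heterokaryon A15. Every sample was compost that this mycelium had grown through, not a picked mushroom. All 6 stages share the same culture: composted wheat straw with horse and chicken manure, gypsum and water, a spawn run of 16 days at 25 °C, and then a casing of peat and lime. The after first flush compost had carried 1 crop of mushrooms and the after second flush compost 2, and the labels give no number of days between picking and sampling. The series as a whole asks which plant-degrading functions the mycelium expresses at each stage of cultivation.

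Agaricus bisporus feeds on straw walls in which cellulose fibres lie in a matrix of hemicellulose, mainly xylan, with some pectin and lignin. Endoglucanases cut cellulose chains inside, exoglucanases (cellobiohydrolases) run along them releasing cellobiose, and beta-glucosidases split cellobiose to glucose. Xylanases and pectate lyases do the same work on xylan and pectin, and side-chain enzymes such as esterases, arabinofuranosidases and galactosidases strip off the branches. The sugars set free feed the mycelium, and the mycelium in turn supplies the mushrooms that grow on the casing.

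Of 9502 genes 8814 had enough reads to be tested, and in these the libraries held 8408651 and 8792614 uniquely placed reads after the first flush and 9175189 and 9216801 after the second. The after first flush libraries stood apart from each other. Across the tested genes they correlated at 0.974 in log2 CPM (counts scaled to the library total), against 0.988 for the after second flush pair, and genes are not independent replicates. Replicate 1 of the after first flush pair was also the farther from the after second flush libraries, with 0.930 and 0.941, where replicate 2 had 0.969 and 0.970. In 520 of the tested genes the after first flush libraries were over 2-fold apart, against 262 genes for the after second flush pair. Whether both libraries of a stage were drawn from different compost beds is not given in the labels, so the p-values reflect how far these libraries vary, and that variation may be technical. Laccases, which mark vegetative compost mycelium, were read in all 4 libraries, with summed levels of 386 and 1037 RPKM after the first flush and 1232 and 729 RPKM after the second. These were low beside the sums of 26771 and 27911 RPKM at spawning and 4523 and 4884 RPKM in the first flush. RPKM is the reads of a gene divided by its length and by the library total. Genes that mark mushroom tissue (tyrosinases, lectins and fruit body proteins, 14 genes) summed to 1647 and 617 RPKM after the first flush and to 518 and 507 RPKM after the second. Their high value in after first flush replicate 1 accompanies several of the results given here, and its part in them was not tested. Much of that value came from 1 XCL-like lectin (gene 194894), at 853 and 148 RPKM after the first flush. Most members were higher in replicate 1, but tyrosinase gene 135027 (31.7 and 42.8 RPKM) and beta-fg gene 132803 (66.2 and 125 RPKM) were higher in replicate 2. Hydrophobins, also among the chosen mushroom tissue markers but summed apart, had 14534 and 17174 RPKM after the first flush.

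Between the after-flush states 771 genes were higher after the second flush and 664 were lower. The test was edgeR's quasi-likelihood test with 1 spread estimated from the 12 libraries, and calls were made at 0.05 after Benjamini-Hochberg adjustment over all tested genes. The calls made up 16.3% of the tested genes, 8.75% higher and 7.53% lower, and every count over a gene list is to be read against these shares. Of the higher genes 301 rose over 2-fold, 103 over 4-fold and 40 over 8-fold. Of the lower genes 236 fell over 2-fold, 54 over 4-fold and 19 over 8-fold. In RPKM the libraries of the stages did not overlap in any called gene, as was also so for 21.9% of all tested genes in the higher direction and 34.3% in the lower. Genes with no description made up 257 of the higher and 340 of the lower ones. Among the higher genes, after first flush replicate 2 lay above replicate 1, so nearer to the after second flush level, in 646 of 771 (83.8%), and among the lower genes it lay below replicate 1 in 497 of 664 (74.8%), against 49% and 51% of all tested genes. Leaving out after first flush replicate 1 left 354 higher and 265 lower calls, and leaving out replicate 2 gave 1190 and 996. Leaving out after second flush replicate 1 or 2 left 332 or 370 higher and 187 or 242 lower calls. In these repeats the lone library of a stage was assumed to vary like the other stages' pairs. A gene whose libraries lay apart within a stage can gain a call there because that gap is dropped. Such a gained call is therefore no support for a change. With the spread estimated from the 4 libraries alone 123 genes were higher and 100 lower. Higher genes made up 53.7% of the calls, and 39.6% in limma on log2(RPKM + 1) with no scaling between libraries, where the median log2 change of all genes was -0.07.

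Cellulose-acting enzymes were higher after the second flush. Of 14 such genes 9 rose in edgeR (12 at an unadjusted p under 0.05, and 12 by DESeq2's Wald test) and 0 fell by any of these measures. With the spread estimated from the 4 libraries alone 3 rose and 0 fell. The median log2 change was 2.17, where the median over all tested genes was 0.00. Fewer cells of a type and less RNA per cell cannot be told apart in such bulk samples. The levels of the 14 genes summed to 337 and 1214 RPKM after the first flush and to 5950 and 4976 RPKM after the second. Both earlier sums were far under both later ones, and after first flush replicate 1 was the lowest of the 4. A cellobiohydrolase-type exoglucanase (gene 194521), which releases cellobiose from chain ends, had 21.4 and 196 RPKM after the first flush and 1691 and 1468 RPKM after the second. Both after second flush libraries were above both after first flush ones by a wide margin, although the after first flush libraries themselves differed greatly. Its log2 change was 3.94 (SE 0.95, edgeR adjusted p = 0.034), and it was 3.09 without after first flush replicate 1 and 6.29 without replicate 2. Leaving out after second flush replicate 1 or 2 ended this call, as did the spread of the 4 libraries alone (edgeR adjusted p = 0.22). Exoglucanase 3 (gene 190390), the most abundant gene of the list, had 60.2 and 491 RPKM and then 2382 and 1967 RPKM. It showed the same gap between the states but was not called (log2 change 3.05, SE 0.88, edgeR adjusted p = 0.058). Its log2 change was 2.22 without after first flush replicate 1 and 5.26 without replicate 2.

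Other called cellulose enzymes moved the same way. An endoglucanase (gene 194478), which cuts inside cellulose chains, had 3.93 and 17.9 RPKM after the first flush and 191 and 157 RPKM after the second (log2 change 4.07, SE 0.63, edgeR adjusted p = 0.0068, and 0.12 with the spread estimated from the 4 libraries alone). The states did not overlap, and the call remained with any single library of the 4 left out, at log2 changes of 3.36 without after first flush replicate 1 and 5.55 without replicate 2. A pair of further endoglucanases (genes 189329 and 191420) rose by log2 changes of 2.87 and 2.96 (edgeR adjusted p = 0.0042 and 0.025). Without after first flush replicate 2 these changes were 3.74 and 4.56, and without replicate 1 they were 2.33 and 2.22. Gene 191420 lost its call without after second flush replicate 1 or 2 (edgeR adjusted p = 0.095 and 0.073). A beta-glucosidase (gene 217305), which splits cellobiose into glucose, had 19.6 and 29.4 RPKM and then 61.2 and 73.1 RPKM (1.54, SE 0.20, edgeR adjusted p = 0.00079). Another (gene 199975) had 12 and 19.7 RPKM and then 47.2 and 39.3 RPKM (1.52, SE 0.21, edgeR adjusted p = 0.0012). Both were apart between the states and stayed called with any 1 of the 4 libraries left out. The cellulose-growth-specific protein (gene 226235), of the family now known as lytic polysaccharide monooxygenases, which break cellulose by oxidation, had 9.15 and 87.5 RPKM and then 361 and 280 RPKM. Its libraries did not overlap between the states, and it was not called (2.80, SE 0.85, edgeR adjusted p = 0.066). Its log2 change was 1.95 without after first flush replicate 1 and 5.21 without replicate 2. Over the whole list the median log2 change was 1.61 with 9 genes higher without after first flush replicate 1, and 2.83 with 11 higher without replicate 2. Without after second flush replicate 1 or 2 the higher genes numbered 4 and 5.

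**Figure D1:**
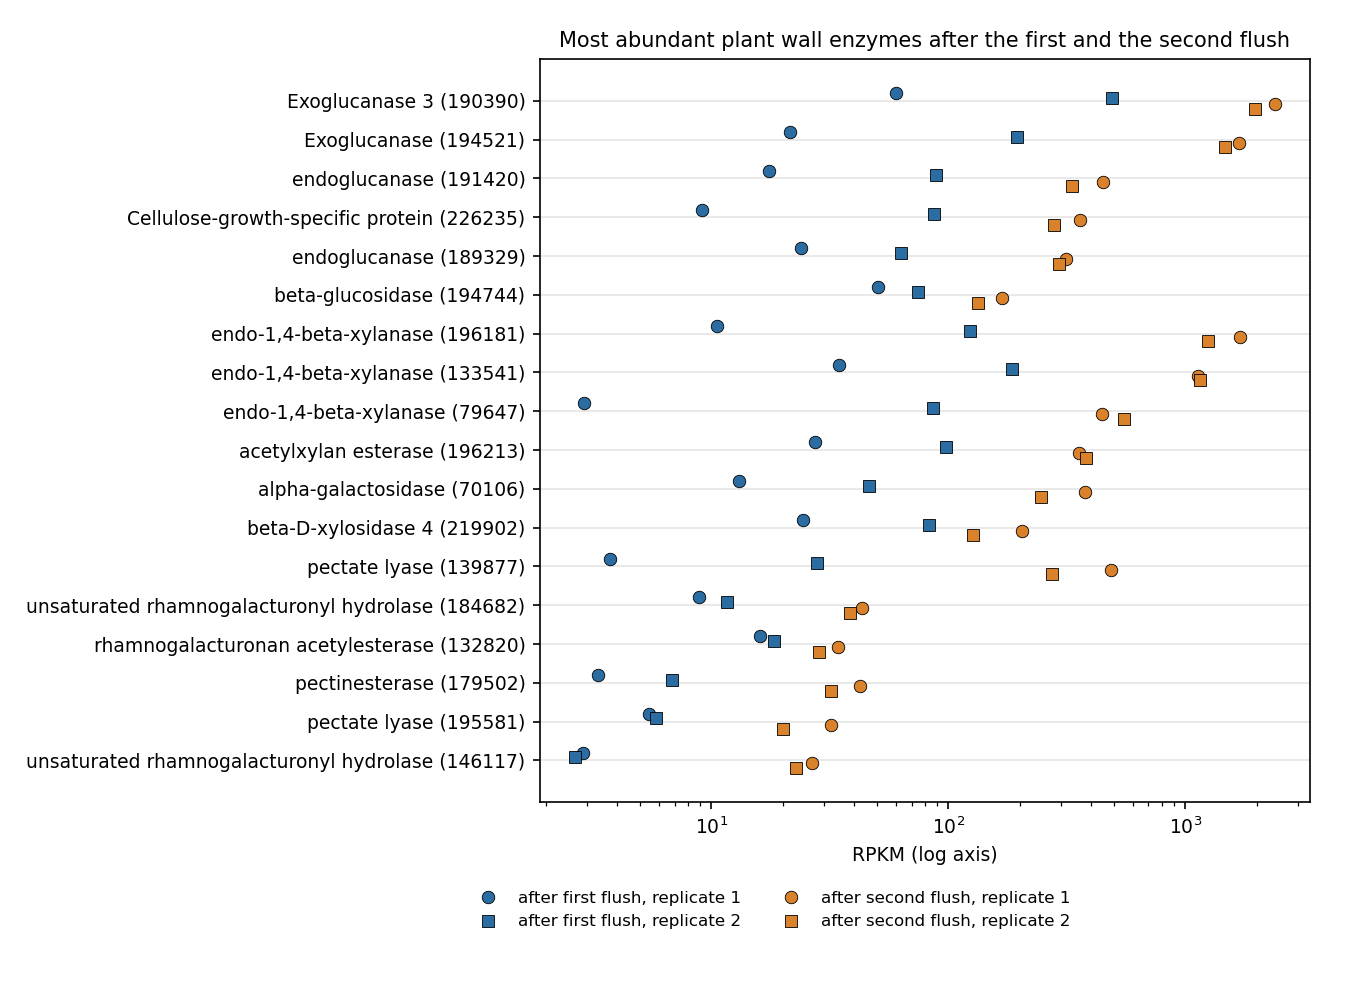
RPKM (log axis) in the 4 libraries of the 6 most abundant genes from each of the cellulose, hemicellulose and pectin lists, with circles for replicate 1 and squares for replicate 2 of each stage. The after second flush points lie to the right of the after first flush points in each row, and in the cellulose and xylan rows after first flush replicate 1 lies well below replicate 2, as for exoglucanase 194521 at 21.4 and 196 RPKM.

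Hemicellulose-acting enzymes showed the same direction. Of 23 tested genes 15 rose and 1 fell, with a median log2 change of 2.30. With the spread estimated from the 4 libraries alone 3 rose and 0 fell. The levels of the list summed to 436 and 1015 RPKM after the first flush and 5220 and 4515 RPKM after the second. An endo-1,4-beta-xylanase (gene 196181), which cuts the xylan backbone, had 10.6 and 123 RPKM and then 1705 and 1246 RPKM. It was low in after first flush replicate 1, intermediate in replicate 2 and high in both after second flush libraries. The rise was 23.2-fold (log2 change 4.54, SE 0.95, edgeR adjusted p = 0.022), and the log2 change was 3.66 without after first flush replicate 1 and 7.19 without replicate 2. The call was lost without after second flush replicate 1 or 2 (edgeR adjusted p = 0.08 and 0.063). A second xylanase (gene 133541) had 34.6 and 185 RPKM and then 1134 and 1153 RPKM (3.46, SE 0.73, edgeR adjusted p = 0.021), and its call was likewise lost without either after second flush library (edgeR adjusted p = 0.075 in each case). Its log2 change was 2.70 without after first flush replicate 1 and 5.13 without replicate 2. Xylanase gene 79647 had 2.89 and 86.1 RPKM and then 445 and 553 RPKM, and it was not called (3.57, SE 1.16, edgeR adjusted p = 0.081). Its log2 change was 2.62 without after first flush replicate 1 and 7.52 without replicate 2.

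Enzymes that remove side chains from xylan, mannan and galactan were also among the risers. An alpha-L-fucosidase (gene 209111), which removes fucose, had 4.74 and 8.29 RPKM and then 83.5 and 58.2 RPKM (log2 change 3.51, SE 0.29, edgeR adjusted p = 9.2e-05). An alpha-galactosidase (gene 70106), which removes galactose, had 13.1 and 46.5 RPKM and then 377 and 247 RPKM (3.46, SE 0.51, edgeR adjusted p = 0.0052). An alpha-N-arabinofuranosidase (gene 194576), which takes arabinose off xylan, had 8.4 and 15.2 RPKM and then 100 and 62.3 RPKM (2.85, SE 0.34, edgeR adjusted p = 0.0011). In each of them the lower after second flush library was above the higher after first flush library, and the call remained with any 1 of the 4 libraries left out. The alpha-galactosidase alone of these moved by over 1.5 times in such repeats, to a log2 change of 2.82 without after first flush replicate 1 and 4.65 without replicate 2. With the spread estimated from the 4 libraries alone it was not called (edgeR adjusted p = 0.11). An arabinogalactan endo-1,4-beta-galactosidase (gene 225045), which cuts inside the chain and is no side-chain enzyme, also rose. It had close replicates in each state, with 25.6 and 26.1 RPKM and then 83.5 and 80.7 RPKM (1.75, SE 0.13, edgeR adjusted p = 2e-05). An acetylxylan esterase (gene 196213), which takes acetyl groups off xylan, had 27.5 and 97.8 RPKM and then 356 and 383 RPKM (2.64, SE 0.54, edgeR adjusted p = 0.018). That call was lost without after second flush replicate 1 or 2 (edgeR adjusted p = 0.066 and 0.073), and the log2 change was 2.0 without after first flush replicate 1 and 3.83 without replicate 2.

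Mannan, another straw hemicellulose, is cut by mannanases and trimmed by beta-mannosidases. The mannanase CEL4a (gene 192609) had 5.75 and 22.4 RPKM and then 122 and 97.4 RPKM (log2 change 3.04, SE 0.52, edgeR adjusted p = 0.0091). It was higher in both after second flush libraries than in either after first flush one, and its log2 change was 2.37 without after first flush replicate 1 and 4.33 without replicate 2. A beta-mannosidase (gene 188899) had 1.1 and 2.18 RPKM and then 11.3 and 4.35 RPKM, so here the after second flush libraries were the ones far apart (2.30, SE 0.49, edgeR adjusted p = 0.017). Its call was lost without after first flush replicate 1 (edgeR adjusted p = 0.12) and without after second flush replicate 1 (0.064, at a log2 change of 1.51). Beta-D-xylosidase 4 (gene 219902), which splits xylose off short xylan pieces, had 24.4 and 83.1 RPKM and then 204 and 127 RPKM (1.69, SE 0.47, edgeR adjusted p = 0.047). That call was lost without after second flush replicate 1 or 2 (edgeR adjusted p = 0.19 and 0.085), with no filter on low counts (0.056) and without the first flush libraries (0.07). The size of the rise was a log2 change of 1.06 without after first flush replicate 1 and 2.84 without replicate 2.

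The 1 hemicellulose gene called lower, of 3 with a negative log2 change, was an arabinan endo-1,5-alpha-L-arabinosidase (gene 119499), which cuts the arabinan chains that hang on pectin. It had 87.7 and 30.3 RPKM after the first flush and 8.32 and 4.08 RPKM after the second, so that both earlier libraries were above both later ones (log2 change -3.17, SE 0.51, edgeR adjusted p = 0.0053). Its log2 change was -2.22 without after first flush replicate 1, and the call remained with any 1 of the 4 libraries left out. Over the list 13 genes were higher and 2 lower without after first flush replicate 1, and 17 were higher without replicate 2, against 8 and 10 without after second flush replicate 1 and 2. Sugar transporters carry the freed sugars into the cell. Of 20 such genes 4 rose in edgeR and 0 fell (median log2 change 0.40). At an unadjusted p under 0.05 the counts were 10 higher and 1 lower, and by DESeq2's Wald test 5 and 0. With the spread estimated from the 4 libraries alone both counts were 0. Between 2 and 6 transporters were higher with 1 of the 4 libraries left out, and 2 were lower without after first flush replicate 2. A sugar:proton symporter (gene 195794) had the largest rise among them, with 14 and 22.5 RPKM and then 45.2 and 34.7 RPKM (1.21, SE 0.22, edgeR adjusted p = 0.0059). The most abundant one (gene 193226) had 749 and 653 RPKM and then 603 and 689 RPKM, which overlapped (-0.03, SE 0.16, edgeR adjusted p = 0.91).

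Pectin-acting enzymes had the highest share of risers among the 37 lists: of 9 tested genes of 10, 7 rose and 0 fell (median log2 change 2.28). The counts were the same at an unadjusted p under 0.05 in edgeR and by DESeq2's Wald test. With the spread estimated from the 4 libraries alone 5 rose and 0 fell. The arabinosidase called lower in the hemicellulose list acts on chains that hang on pectin, so the count of 0 fallers depends on its placement. The levels of the pectin list were low, with sums of 49.8 and 84.7 RPKM after the first flush and 691 and 431 RPKM after the second. Most of the later sums came from 1 gene. That gene was a pectate lyase (gene 139877), which cuts de-esterified pectin by elimination, at 3.73 and 28 RPKM and then 485 and 273 RPKM. Both after second flush libraries stood far above the after first flush pair (log2 change 4.64, SE 0.84, edgeR adjusted p = 0.013), and the call was lost without after second flush replicate 1 (edgeR adjusted p = 0.058). The log2 change was 3.83 without after first flush replicate 1 and 6.74 without replicate 2. An unsaturated rhamnogalacturonyl hydrolase (gene 146117), which trims the products of rhamnogalacturonan cleavage, had 2.88 and 2.66 RPKM and then 26.6 and 22.7 RPKM. Here the after first flush replicates lay together, and the change was 9.35-fold (3.22, SE 0.21, edgeR adjusted p = 1.3e-05). A pectinesterase (gene 179502), which removes the methyl groups that shield pectin, had 3.34 and 6.81 RPKM and then 42.4 and 32 RPKM (2.94, SE 0.32, edgeR adjusted p = 0.00044, and a log2 change of 3.55 without after first flush replicate 2). Rhamnogalacturonyl hydrolase gene 184682 had 8.89 and 11.7 RPKM and then 43.4 and 38.6 RPKM (2.07, SE 0.23, edgeR adjusted p = 0.00028). The second pectate lyase (gene 195581) had 5.44 and 5.84 RPKM and then 32 and 20.1 RPKM (2.28, SE 0.28, edgeR adjusted p = 0.00061). Both were called with any 1 of the 4 libraries left out and had close after first flush replicates. A polygalacturonase (gene 229720) stayed near the floor, with 0.41 and 2.35 RPKM and then 2.54 and 1.31 RPKM, which overlapped (0.53, SE 0.87, edgeR adjusted p = 0.72). Between 5 and 7 genes of the list were called with any 1 of the 4 libraries left out.

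**Figure D2:**
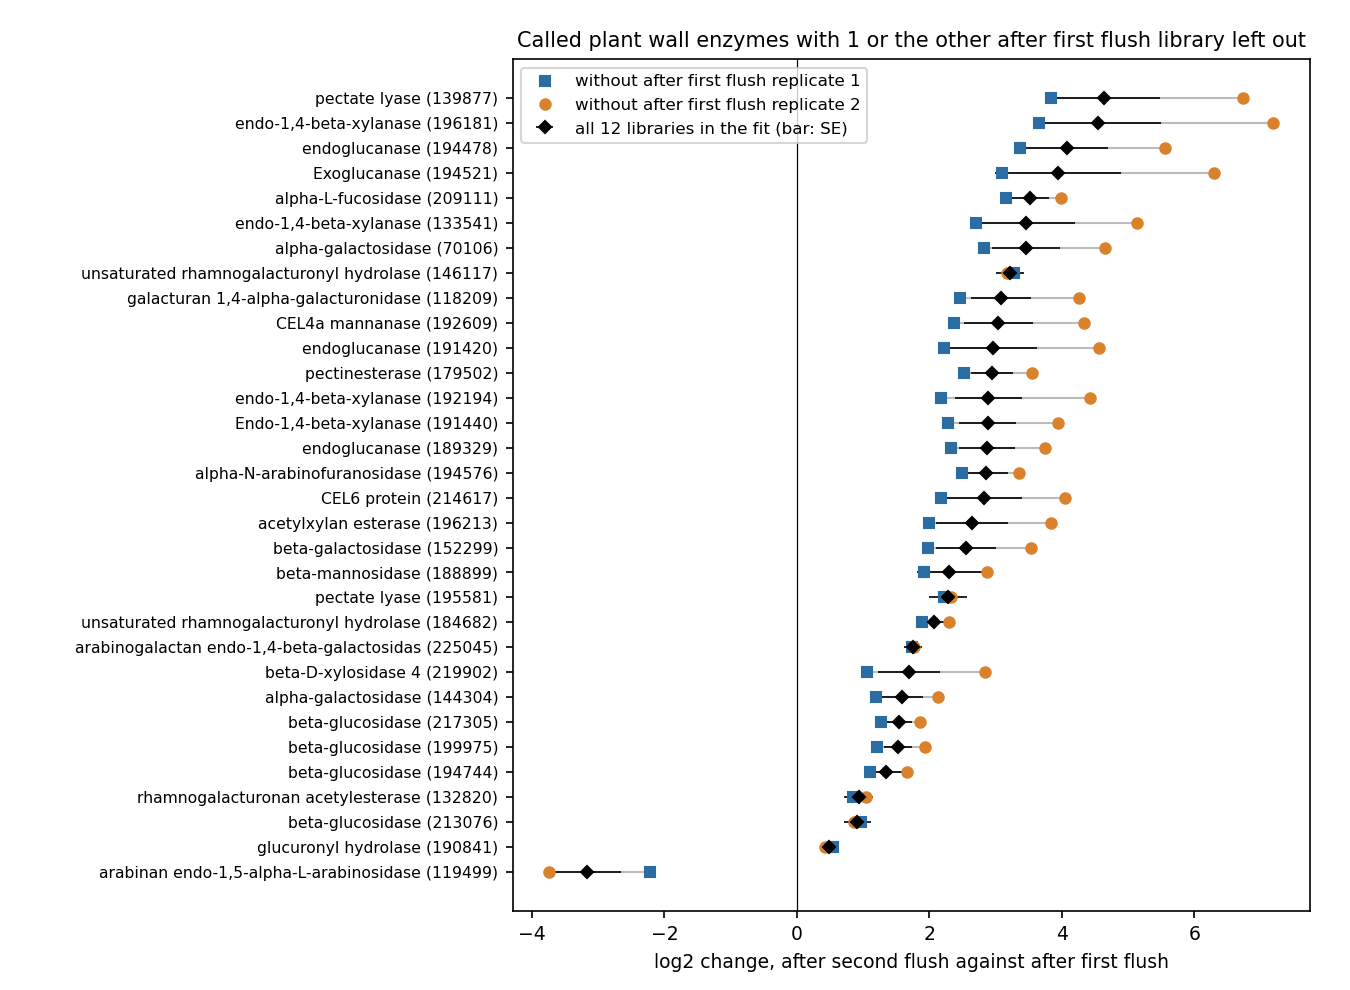
Log2 change of the called cellulose, hemicellulose and pectin enzymes with all libraries in the fit (black diamonds, bars of 1 SE), without after first flush replicate 1 (blue squares) and without after first flush replicate 2 (orange circles). The sign is the same in each row, and the size is not: xylanase 196181 lies at 3.66 and 7.19 and rhamnogalacturonyl hydrolase 146117 at 3.28 and 3.17.

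Further glycosidases and sugar enzymes rose alongside these. A group of 28 genes carries only the annotation of a glycosidase class with no named substrate, and of the 27 tested 13 rose and 1 fell (median log2 change 1.97). With the spread estimated from the 4 libraries alone 6 rose and 0 fell. The most abundant of the group (gene 122757) had 18.1 and 262 RPKM and then 1752 and 1859 RPKM. It was not called (3.77, SE 1.07, edgeR adjusted p = 0.055). A second (gene 194696) had 1.78 and 19.3 RPKM and then 371 and 270 RPKM (4.99, SE 0.76, edgeR adjusted p = 0.0071), and its log2 change was 4.13 without after first flush replicate 1 and 7.56 without replicate 2. Of 21 tested genes of starch, glycogen and trehalose metabolism 7 rose in edgeR and 0 fell (median 0.33), with 9 higher and 0 lower at an unadjusted p under 0.05 and 8 and 0 by DESeq2's Wald test. With the spread estimated from the 4 libraries alone 2 rose and 0 fell. Only 3 were higher without after second flush replicate 2. The glucoamylase (gene 192455), which splits glucose off starch-like glucans, had 94.3 and 95.4 RPKM and then 236 and 302 RPKM, with no overlap and close after first flush replicates (1.59, SE 0.16, edgeR adjusted p = 0.00016). The alpha-amylase (gene 211295) had 1.08 and 2.39 RPKM and then 9.1 and 7.54 RPKM (2.32, SE 0.32, edgeR adjusted p = 0.0011, and a log2 change of 3.01 without after first flush replicate 2). Of 14 pentose and polyol genes 3 rose and 2 fell (median 0.30), and 8 were higher without after first flush replicate 2. L-iditol 2-dehydrogenase (gene 193249), an enzyme of the polyol steps of pentose use, had 29.8 and 34.5 RPKM and then 80 and 65 RPKM (1.25, SE 0.13, edgeR adjusted p = 0.0002). Mannitol-1-phosphate 5-dehydrogenase (gene 178863) had 46.7 and 41.4 RPKM and then 10.8 and 13.4 RPKM (-1.78, SE 0.23, edgeR adjusted p = 0.0008). Mannitol is the main storage polyol of this mushroom, and its NADP-dependent dehydrogenase (gene 194752) had 1030 and 1774 RPKM and then 1567 and 1343 RPKM, which overlapped (0.13, SE 0.22, edgeR adjusted p = 0.72, and 0.027 without after first flush replicate 2).

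**Figure D3:**
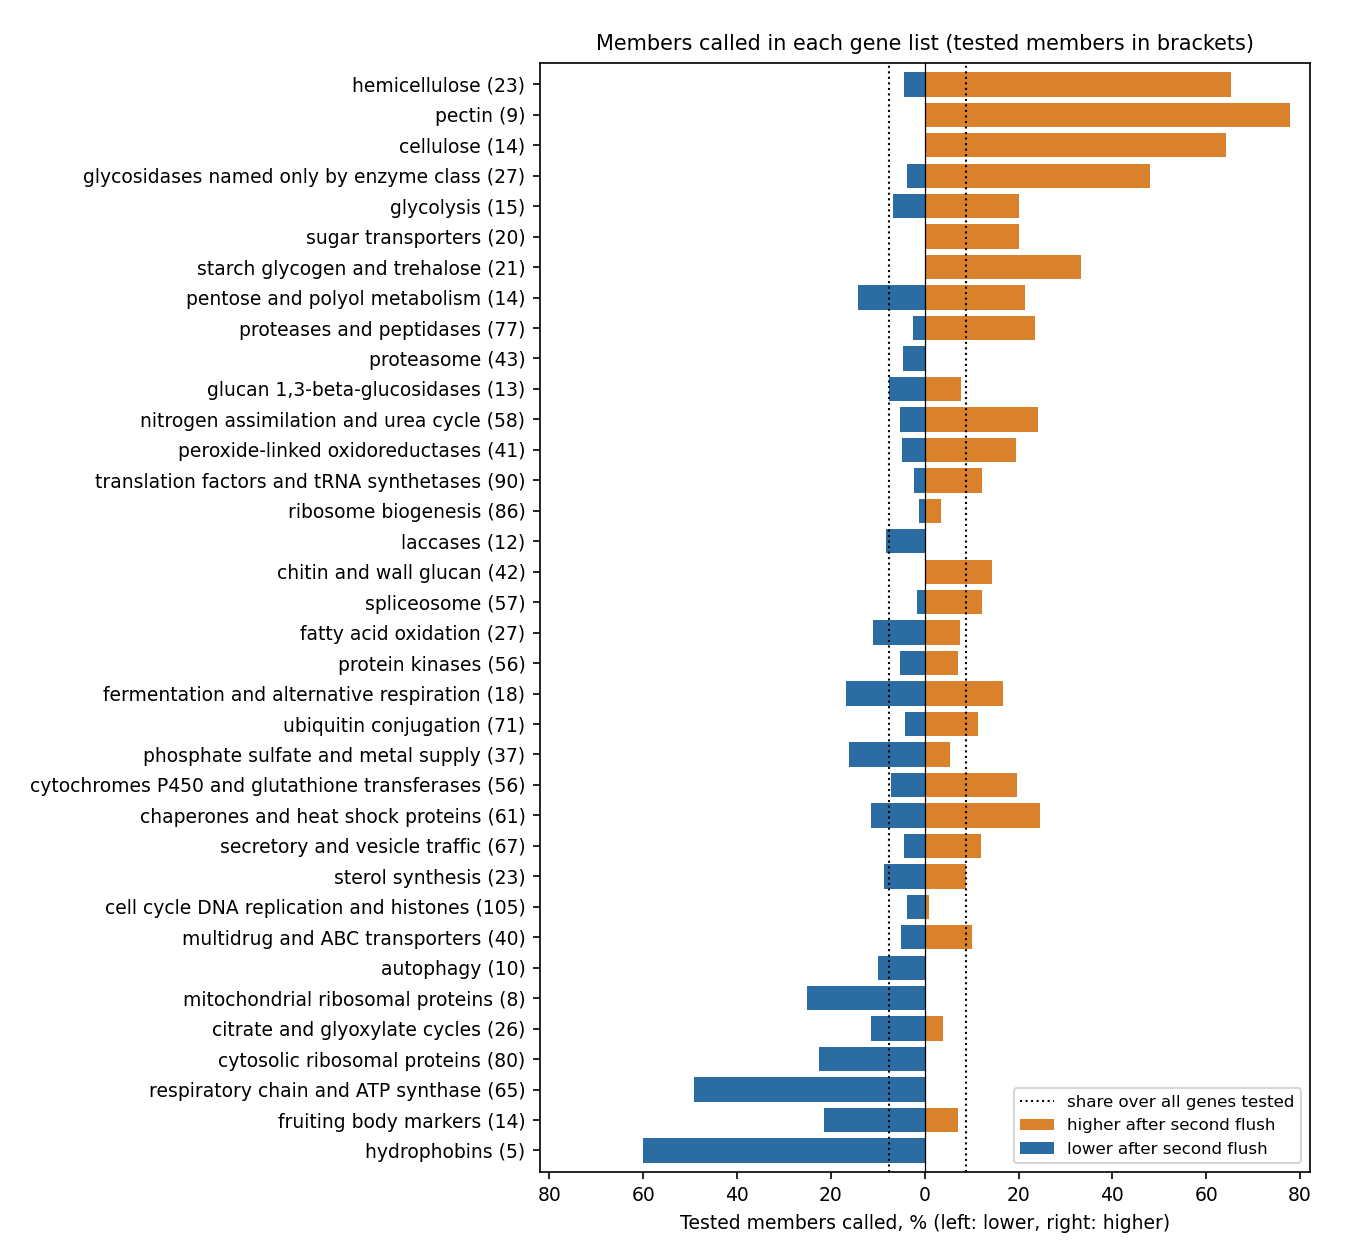
Share of tested members called higher (orange, right) and lower (blue, left) after the second flush in each gene list with at least 5 tested members, ordered by the median log2 change of the list. Dotted lines mark the shares over all tested genes, 8.75% higher and 7.53% lower. The pectin, hemicellulose and cellulose lists have the longest orange bars, and the hydrophobins and the respiratory chain the longest blue ones.

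Proteases, which release amino acids from protein, held more risers than fallers. Of 77 tested proteases and peptidases 18 rose and 2 fell, with a median log2 change of 0.26. With the spread estimated from the 4 libraries alone 2 rose and 0 fell. A serine proteinase (gene 194648) had 3.58 and 6.76 RPKM and then 89.7 and 73 RPKM, a change of 16.5-fold (log2 change 4.04, SE 0.33, edgeR adjusted p = 9e-05). An aminopeptidase (gene 222775), which takes amino acids off peptide ends, had 25.4 and 24.4 RPKM and then 198 and 236 RPKM (3.21, SE 0.21, edgeR adjusted p = 1.3e-05). A carboxypeptidase D (gene 68978) had 22.3 and 79.3 RPKM and then 621 and 454 RPKM (3.47, SE 0.52, edgeR adjusted p = 0.0052). None of the 3 genes overlapped between the states, and their calls remained with any 1 of the 4 libraries left out. The carboxypeptidase had a log2 change of 2.83 without after first flush replicate 1 and 4.67 without replicate 2. The most abundant member, a prolyl oligopeptidase (gene 219134), had 542 and 516 RPKM and then 740 and 813 RPKM (0.64, SE 0.14, edgeR adjusted p = 0.013). Its call was lost without after second flush replicate 2 (edgeR adjusted p = 0.081). The count of proteases called higher was 11 without after first flush replicate 1 and 32 without replicate 2, and 8 without after second flush replicate 1 or 2.

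In the list of nitrogen assimilation, amino acid transport and the urea cycle 14 of 58 genes rose and 3 fell (median 0.19). Of these genes 9 were higher without after second flush replicate 1, and the lower ones numbered 5 without after first flush replicate 2 and 1 without either after second flush library. Formamidase (gene 177041), which frees ammonia from formamide, had 0.658 and 1.34 RPKM and then 17.6 and 16.6 RPKM (log2 change 4.15, SE 0.35, edgeR adjusted p = 4.2e-05). Its log2 change was 4.76 without after first flush replicate 2. Of the genes annotated as allantoate permeases, importers of a purine breakdown product in yeast, gene 188055 had 0.864 and 7.31 RPKM and then 66.7 and 40.3 RPKM (3.77, SE 0.70, edgeR adjusted p = 0.013). It lost its call without after second flush replicate 1 (edgeR adjusted p = 0.064), and its log2 change was 2.94 without after first flush replicate 1 and 6.01 without replicate 2. Such an annotation names a transporter family rather than a proven substrate. Another of them (gene 117146) had 7.51 and 14 RPKM and then 64.3 and 42.7 RPKM (2.38, SE 0.29, edgeR adjusted p = 0.00082). The states did not overlap in any of these 3 genes. Of the fallers, an ammonium transporter (gene 189841) had 11.1 and 8.56 RPKM and then 2.24 and 1.47 RPKM (-2.32, SE 0.48, edgeR adjusted p = 0.012). Its call was lost without after first flush replicate 1 (edgeR adjusted p = 0.062) and without after second flush replicate 1 or 2 (0.058 and 0.081). Glutamine synthetase (gene 135514), which binds ammonia into glutamine and was the most abundant gene of the list, had 1910 and 1681 RPKM and then 1586 and 1850 RPKM, with no order between the states (0.02, SE 0.15, edgeR adjusted p = 0.94).

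Oxidative enzymes gave a mixed picture. Of 41 tested genes of the peroxide-linked list (sugar and alcohol oxidases and dehydrogenases, catalases and superoxide dismutases) 8 rose and 2 fell (median log2 change 0.17). With 1 of the 4 libraries left out between 3 and 11 of them were higher and between 1 and 5 lower, the most in each direction without after first flush replicate 2. An alcohol oxidase (gene 195553), an enzyme class that makes hydrogen peroxide, had 3.41 and 17.8 RPKM and then 214 and 114 RPKM (4.01, SE 0.76, edgeR adjusted p = 0.014), and the call was lost without after second flush replicate 1 (edgeR adjusted p = 0.067). The log2 change was 3.27 without after first flush replicate 1 and 5.66 without replicate 2. Gene 188178, with the annotation of a choline dehydrogenase, had 18.5 and 23.6 RPKM and then 107 and 97.6 RPKM (2.36, SE 0.21, edgeR adjusted p = 9e-05). The most abundant catalase (gene 195354), which removes peroxide, had 777 and 1619 RPKM and then 1874 and 1681 RPKM and was not called (0.65, SE 0.28, edgeR adjusted p = 0.14), although it was without after first flush replicate 2 (edgeR adjusted p = 0.00061). Among 56 tested cytochromes P450 and glutathione transferases, which process aromatic and foreign compounds, 11 rose and 4 fell (median 0.02). Their higher genes ranged from 1 without after second flush replicate 1 to 15 without after first flush replicate 2, and their lower genes from 0 to 8 in the same repeats. A glutathione S-transferase (gene 193903) had 10.3 and 23.5 RPKM and then 91 and 86.2 RPKM (2.46, SE 0.45, edgeR adjusted p = 0.01), and its edgeR adjusted p was 0.051 without after second flush replicate 1. Its log2 change was 3.18 without after first flush replicate 2. A cytochrome P450 (gene 79965) had 43.2 and 10.8 RPKM and then 4.87 and 5.91 RPKM (-2.24, SE 0.54, edgeR adjusted p = 0.026). Its high value was that of after first flush replicate 1, without which the log2 change was -0.93, against -2.91 without replicate 2. Its call was lost without after second flush replicate 1 or 2 (edgeR adjusted p = 0.14 and 0.1).

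Laccases are phenol oxidases that act on lignin. Of 12 laccase genes, the small subunit of laccase-2 counted among them, 0 rose and 1 fell in edgeR (median log2 change 0.13). At an unadjusted p under 0.05, and likewise by DESeq2's Wald test, 0 were higher and 2 lower. Laccase-2 (gene 139148) had 45.9 and 433 RPKM after the first flush and 626 and 325 RPKM after the second, so the states overlapped (1.06, SE 0.88, edgeR adjusted p = 0.45). Its small subunit (gene 149407) had 127 and 420 RPKM and then 446 and 247 RPKM, which overlapped as well (0.41, SE 0.52, edgeR adjusted p = 0.63). The faller was laccase-5 (gene 135711), at 7.07 and 4.7 RPKM and then 2.53 and 1.35 RPKM (-1.52, SE 0.44, edgeR adjusted p = 0.044). Its adjusted p was 0.22 without after first flush replicate 1 and 0.079 and 0.2 without after second flush replicate 1 and 2. Laccases are close paralogs, so levels from uniquely placed reads are uncertain. The 1 secreted heme peroxidase, manganese peroxidase (gene 221245), had 29.2 and 43.5 RPKM and then 39.6 and 24.6 RPKM (-0.11, SE 0.28, edgeR adjusted p = 0.82). Without after first flush replicate 2 there were 3 laccases higher and 2 lower, and laccase-2 and its small subunit were among the higher ones (edgeR adjusted p = 0.0041 and 0.028).

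The largest rise among described genes with at least 20 CPM in the higher state was not a wall enzyme by name. A gene annotated as 6-phosphogluconolactonase (gene 122979), in yeast and other organisms an enzyme of the pentose phosphate pathway, had 0.545 and 1.91 RPKM and then 56.2 and 41.3 RPKM. It was near the floor in both after first flush libraries and plainly read in both others, and it changed 40.6-fold (log2 change 5.34, SE 0.49, edgeR adjusted p = 0.00014). The log2 change was 4.73 and 6.50 without after first flush replicate 1 and 2. Gene 210102, with the annotation of splicing factor 3B subunit 1, had 0.703 and 1.62 RPKM and then 20.9 and 10.6 RPKM (3.81, SE 0.39, edgeR adjusted p = 0.00031, and a log2 change of 4.55 without after first flush replicate 2). Other genes share this annotation. The closest match by e-value (gene 223074) had 36.6 and 39.9 RPKM and then 56.6 and 54.9 RPKM, a log2 change of 0.62. The changes were 1.30 for gene 204168, 1.72 for gene 68812 (not called) and 0.05 for gene 65577 (not called). Of 57 tested splicing genes, tRNA-splicing endonuclease subunits counted among them, 7 were higher and 1 lower (median 0.11). The lower one was such a subunit (Sen54, gene 149520, log2 change -0.54). With the spread estimated from the 4 libraries alone 3 were higher and 0 lower. Fewer were also higher without after first flush replicate 1, after second flush replicate 1 or after second flush replicate 2. Of genes with no description, gene 194662 had 15.8 and 58.6 RPKM and then 525 and 578 RPKM (3.97, SE 0.53, edgeR adjusted p = 0.0034). Gene 176511 had 1.57 and 8.47 RPKM and then 97.8 and 75.9 RPKM (4.17, SE 0.67, edgeR adjusted p = 0.007). Gene 208425 had 4.62 and 10.6 RPKM and then 83.3 and 70.5 RPKM (3.40, SE 0.30, edgeR adjusted p = 9e-05). In each of the 3 the after second flush libraries were well above the others, and the calls remained with any 1 of the 4 libraries left out. Their log2 changes were 3.31, 3.43 and 2.93 without after first flush replicate 1, and 5.21, 5.86 and 4.13 without replicate 2.

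Among the falling genes was a pair of abundant genes of the ethanol pathway. Pyruvate decarboxylase (gene 193820), which turns pyruvate into acetaldehyde, had 1405 and 703 RPKM after the first flush and 253 and 251 RPKM after the second. An alcohol dehydrogenase (gene 194191), of the enzyme class that reduces acetaldehyde to ethanol, had 1641 and 810 RPKM and then 181 and 148 RPKM. In both genes replicate 1 of the after first flush pair was the higher one, and both after first flush libraries were above the after second flush pair. The log2 changes were -1.98 for the decarboxylase (SE 0.25, edgeR adjusted p = 0.00096) and -2.82 for the dehydrogenase (SE 0.29, edgeR adjusted p = 0.00042). They were -1.40 and -2.23 without after first flush replicate 1, and the calls remained with any 1 of the 4 libraries left out. Gene 152135, an alternative oxidase that bypasses the proton-pumping complexes of respiration, had 834 and 197 RPKM and then 251 and 310 RPKM. It was high in after first flush replicate 1 alone and was not called (-0.79, SE 0.59, edgeR adjusted p = 0.4), although it was without after first flush replicate 2 (edgeR adjusted p = 0.01). The list of 18 fermentation and alternative respiration genes held 3 risers and 3 fallers, with a median log2 change of 0.07. The risers included alcohol dehydrogenase gene 190960, which shares the annotation of the falling gene 194191 (0.87, SE 0.19, edgeR adjusted p = 0.012). Another was gene 191754, annotated as S-(hydroxymethyl)glutathione dehydrogenase or alcohol dehydrogenase (0.73, SE 0.16, edgeR adjusted p = 0.012). Without after first flush replicate 2 there were 7 risers and 4 fallers, and without replicate 1 there were 0 and 2. The counts were 1 and 2 without after second flush replicate 1 and 0 and 2 without its replicate 2. Summed levels were 4967 and 3056 RPKM and then 2041 and 2059 RPKM. Among these 4 libraries the one with the highest sum also had the highest mushroom tissue markers (1647 RPKM), and the part of these in the fall was not tested. The pinning libraries had marker sums of 1785 and 2536 RPKM, and sums of 1861 and 1669 RPKM for the fermentation list.

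**Figure D4:**
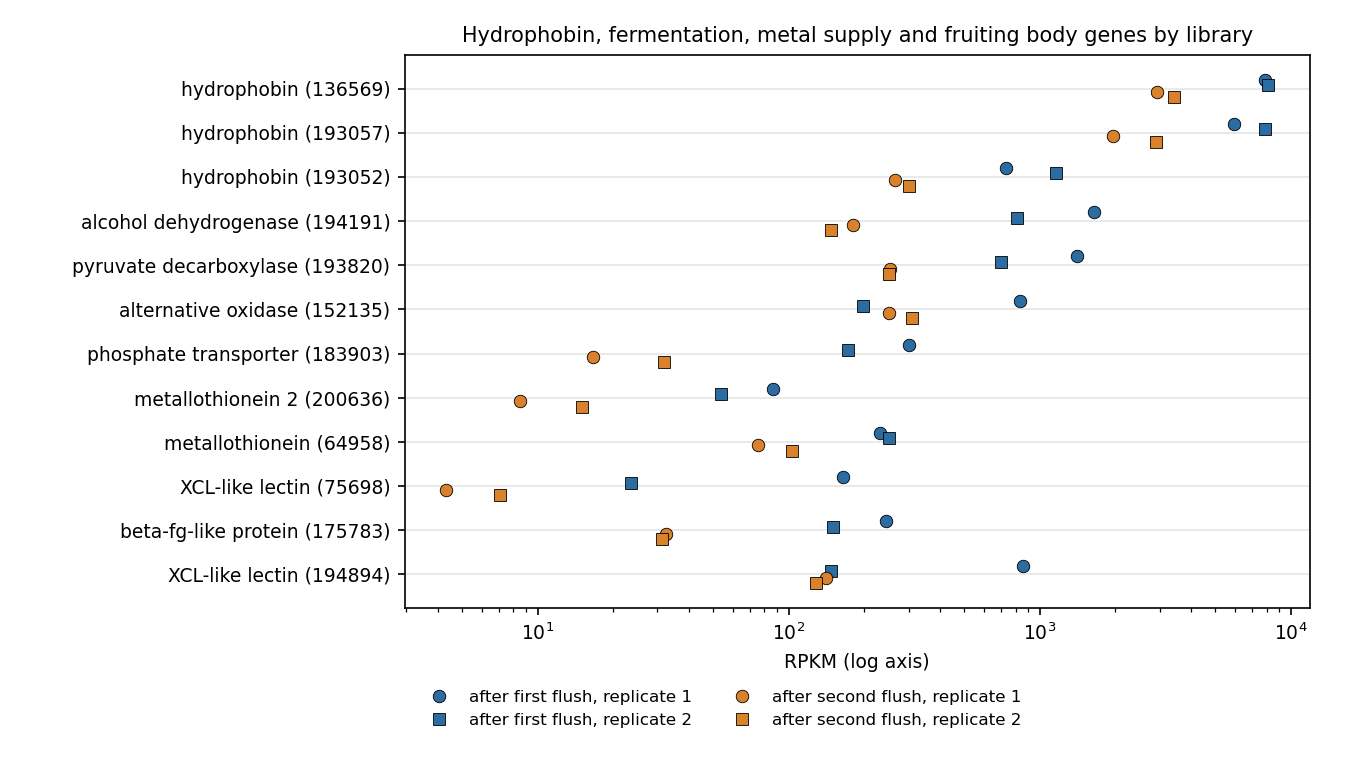
RPKM (log axis) in the 4 libraries of the 3 most abundant hydrophobins and genes of the fermentation list, and of the 3 genes with the lowest log2 change in the phosphate and metal list and among the fruit body markers, with circles for replicate 1 and squares for replicate 2. Blue after first flush points lie to the right of orange after second flush points except for alternative oxidase (834 and 197 against 251 and 310 RPKM), and for lectin 194894 the gap rests on after first flush replicate 1 (853 RPKM).

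Many genes of the respiratory chain, which makes most of the cell's ATP in the mitochondria, fell by a small amount. Of 65 tested genes of complexes I to IV and ATP synthase 32 fell and 0 rose in edgeR, with a median log2 change of -0.45, and 2 of the 65 had a positive log2 change. At an unadjusted p under 0.05 there were 47 lower and 0 higher, and by DESeq2's Wald test 34 and 0. With the spread estimated from the 4 libraries alone 2 were lower and 0 higher. Summed levels were 17383 and 16076 RPKM after the first flush and 11491 and 11871 RPKM after the second, with each pair close. Subunit 8 of ubiquinol-cytochrome c reductase (gene 138465), a part of complex III, had 347 and 328 RPKM and then 174 and 163 RPKM (-0.92, SE 0.13, edgeR adjusted p = 0.0014). Subunit VIa of cytochrome c oxidase (gene 133378), a part of complex IV, had 547 and 506 RPKM and then 294 and 310 RPKM (-0.72, SE 0.11, edgeR adjusted p = 0.0026). The complex I subunit GRIM19 (gene 139455) had 79.9 and 94.5 RPKM and then 36.6 and 41.4 RPKM (-1.08, SE 0.18, edgeR adjusted p = 0.0033). In these genes the replicates of each state lay together, and the calls remained with any 1 of the 4 libraries left out. The largest fall was that of another complex I subunit (alpha subcomplex 9, gene 198504), at 21.4 and 13.9 RPKM and then 5.57 and 7.2 RPKM (-1.38, SE 0.30, edgeR adjusted p = 0.012). Its call was lost without after first flush replicate 1 (edgeR adjusted p = 0.086) and without after second flush replicate 1 (0.089). Cytochrome c (gene 135048), the most abundant gene of the list, had 2116 and 1276 RPKM and then 908 and 1174 RPKM and was not called (-0.62, SE 0.23, edgeR adjusted p = 0.093), although it was without after first flush replicate 2 (edgeR adjusted p = 0.0062). The number of lower genes was 14 without after first flush replicate 1, 34 without replicate 2, and 7 and 15 without after second flush replicate 1 and 2. The list median stayed between -0.53 and -0.41 in these repeats, and on RPKM with no scaling between libraries 43 genes were lower.

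Cytosolic ribosomal proteins build the ribosomes that make most of the cell's protein. Of 80 genes 18 fell and 0 rose in edgeR (median log2 change -0.32), against 46 lower and 2 higher at an unadjusted p under 0.05 and 32 and 0 by DESeq2's Wald test. They stood at sums of 79452 and 90266 RPKM after the first flush and 65125 and 62673 RPKM after the second. Ribosomal protein L22e (gene 62927) had the largest fall, at 902 and 873 RPKM and then 578 and 522 RPKM (-0.61, SE 0.12, edgeR adjusted p = 0.008), and its adjusted p was 0.053 without after second flush replicate 2. Without after first flush replicate 1 or 2 there were 14 and 9 lower genes, and without after second flush replicate 1 or 2 there were 2 and 0. On RPKM with no scaling between libraries the count was 41, and with the spread estimated from the 4 libraries alone it was 0. Translation factors and tRNA synthetases had 11 of 90 genes higher and 2 lower (median 0.16). With the spread estimated from the 4 libraries alone 0 were higher and 0 lower. The median was between 0.11 and 0.23 with 1 of the 4 libraries left out, and the calls depended on which one it was. Elongation factor 1-alpha (gene 133083), which brings amino acids to the ribosome, was the most abundant gene after the second flush at 6232 and 6771 RPKM, against 2999 and 5531 RPKM after the first (0.69, SE 0.22, edgeR adjusted p = 0.057, and 0.00028 without after first flush replicate 2).

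Among chaperones, 15 of 61 genes rose and 7 fell (median log2 change 0.02). Of 8 genes for subunits of the cytosolic chaperonin that folds actin and tubulin (T-complex protein 1), singled out after their values were seen, 7 were among the risers, such as subunit beta (gene 177986) at 80.8 and 124 RPKM and then 162 and 173 RPKM (0.79, SE 0.17, edgeR adjusted p = 0.011). That call was lost without after second flush replicate 2 (edgeR adjusted p = 0.065). A small heat shock protein (HSP20 family, gene 224184) had 37 and 43.7 RPKM and then 12.4 and 7 RPKM, with no overlap (-1.98, SE 0.29, edgeR adjusted p = 0.0018). The chaperonin subunits called higher numbered 1 and 7 without after first flush replicate 1 and 2, and 1 and 0 without after second flush replicate 1 and 2. Over the whole chaperone list these counts were 3, 13, 4 and 1 higher and 3, 10, 3 and 4 lower. The proteasome degrades proteins tagged with ubiquitin, and of its 43 genes 0 were higher and 2 lower in edgeR (median 0.25). A positive log2 change was seen in 37 of the 43. The lower genes, 118862 and 66531, were near the floor, with at most 2.14 and 4.47 RPKM in the 4 libraries. At an unadjusted p under 0.05 there were 14 higher and 3 lower, by DESeq2's Wald test 0 and 1, and 21 were higher without after first flush replicate 2. In the other 3 leave-outs 0 were higher, and without after first flush replicate 1 or after second flush replicate 1 0 were lower.

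Hydrophobins, small secreted proteins that coat hyphae and make them water-repellent, were lower after the second flush. Of 7 genes 5 were tested, and 3 of these fell and 0 rose in edgeR. The counts were the same at an unadjusted p under 0.05, by DESeq2's Wald test and with the spread estimated from the 4 libraries alone. The summed level of the list was 14534 and 17174 RPKM and then 5144 and 6612 RPKM, with both later libraries under both earlier ones. Hydrophobin 136569 had 7868 and 8131 RPKM and then 2922 and 3417 RPKM (log2 change -1.25, SE 0.16, edgeR adjusted p = 0.00072), with close replicates in each state. Hydrophobin 193057 had 5925 and 7875 RPKM and then 1950 and 2888 RPKM (-1.42, SE 0.31, edgeR adjusted p = 0.014), and hydrophobin 193052 had 730 and 1159 RPKM and then 265 and 302 RPKM (-1.65, SE 0.29, edgeR adjusted p = 0.0061). Without after second flush replicate 1 the edgeR adjusted p of 193057 and 193052 was 0.086 and 0.056, which left 1 hydrophobin called. Hydrophobin-1 (gene 133693), which in this species is known from mushroom tissue, was near the floor with 2.02 and 2.74 RPKM and then 1.85 and 1.38 RPKM (-0.48, SE 2.42, edgeR adjusted p = 0.92). Reads of these paralogs may be split or lost in unique counting. Other very abundant genes fell by similar amounts. Gene 136557, with no description, had 9933 and 7903 RPKM and then 2183 and 3979 RPKM (-1.44, SE 0.30, edgeR adjusted p = 0.011, and 0.079 without after first flush replicate 1). Gene 71560, also with no description, had 5242 and 6820 RPKM and then 1691 and 2118 RPKM (-1.58, SE 0.23, edgeR adjusted p = 0.0016). Ubiquitin C (gene 133168), of like abundance, had 4403 and 5167 RPKM and then 4545 and 5554 RPKM, which overlapped (0.16, SE 0.16, edgeR adjusted p = 0.53).

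Marker genes of mushroom tissue did not move as one. Of 14 genes 1 rose and 3 fell (median log2 change -0.53), 6 were lower without after first flush replicate 2 and 0 and 1 without after second flush replicate 1 and 2, and none of the 14 was at 0 in any of the 4 libraries. An XCL-like lectin (gene 75698), a sugar-binding protein, had 165 and 23.6 RPKM and then 4.32 and 7.08 RPKM (-3.95, SE 0.95, edgeR adjusted p = 0.032). The fall was mostly that of after first flush replicate 1, without which the log2 change was -1.96, against -4.76 without replicate 2. The call was lost without after second flush replicate 1 or 2 (edgeR adjusted p = 0.16 and 0.12). A second XCL-like lectin (gene 194894), the most abundant of the list, had 853 and 148 RPKM and then 141 and 128 RPKM (-1.81, SE 0.69, edgeR adjusted p = 0.12, and 0.00016 without after first flush replicate 2). The beta-fg-like protein (gene 175783) had 244 and 150 RPKM and then 32.5 and 31.4 RPKM, so both earlier libraries were well above the later ones (-2.54, SE 0.40, edgeR adjusted p = 0.0058), and its adjusted p was 0.052 without after second flush replicate 1. The related beta-fg gene 132803 went up, from 66.2 and 125 RPKM to 173 and 176 RPKM (0.95, SE 0.24, edgeR adjusted p = 0.026). That call was lost without after first flush replicate 1 (edgeR adjusted p = 0.069) and without after second flush replicate 1 or 2 (0.084 and 0.11). Tyrosinases are copper enzymes that brown the mushroom, and 1 of the 6 tested was called. Tyrosinase gene 135027 had 31.7 and 42.8 RPKM and then 19.3 and 13.6 RPKM, with no overlap (-1.10, SE 0.31, edgeR adjusted p = 0.039). That call was lost without any 1 of the 4 libraries (edgeR adjusted p = 0.08 and 0.14 without after first flush replicate 1 and 2, and 0.084 and 0.18 without after second flush replicate 1 and 2) and without the first flush libraries (0.06). Tyrosinase gene 191532 was high in after first flush replicate 1 alone, with 56.1 and 11.2 RPKM and then 9.45 and 9.9 RPKM, and was not called (-1.71, SE 0.76, edgeR adjusted p = 0.17, and 0.018 without after first flush replicate 2). Tyrosinase gene 191507 had 70.2 and 32.8 RPKM and then 48.8 and 56.2 RPKM, which overlapped (0.11, SE 0.42, edgeR adjusted p = 0.88).

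Genes of phosphate and metal supply held several of the large falls. Of 37 tested genes 2 rose and 6 fell (median log2 change 0.03), and the count of lower genes was 3 without after first flush replicate 1 and 1 without after second flush replicate 1. The higher genes numbered 5 without after first flush replicate 2 and 0 without any other of the 4 libraries. Inorganic phosphate transporters take up phosphate with protons. The most abundant gene with this annotation (gene 196266) had 924 and 917 RPKM and then 760 and 1030 RPKM. Its libraries overlapped between the states (0.05, SE 0.19, edgeR adjusted p = 0.89). Another such gene (gene 183903) had 300 and 172 RPKM and then 16.6 and 31.8 RPKM. The earlier libraries were clearly the higher, with a 9.14-fold change (-3.19, SE 0.70, edgeR adjusted p = 0.025). The edgeR adjusted p was 0.11 without after first flush replicate 1 and 0.13 and 0.077 without after second flush replicate 1 and 2, and the log2 change was -3.78 without the last. Metallothionein 2 (gene 200636), a small protein that binds copper and other metals, had 86.4 and 53.9 RPKM and then 8.47 and 15 RPKM (-2.49, SE 0.34, edgeR adjusted p = 0.0013). A second metallothionein (gene 64958) had 230 and 250 RPKM and then 75.7 and 103 RPKM (-1.34, SE 0.32, edgeR adjusted p = 0.021). Both were apart between the states, and the first kept its call with any 1 of the 4 libraries left out, whereas the second lost it without after first flush replicate 1 (edgeR adjusted p = 0.08), after first flush replicate 2 (0.053) or after second flush replicate 1 (0.12). Gene 178286, with no description, had 136 and 96 RPKM and then 13 and 8.7 RPKM (-3.34, SE 0.44, edgeR adjusted p = 0.0022). Gene 194010, also undescribed, had 545 and 154 RPKM and then 19.1 and 12.2 RPKM (-4.41, SE 0.86, edgeR adjusted p = 0.017), with an adjusted p of 0.068 without after first flush replicate 1 and 0.089 and 0.1 without after second flush replicate 1 and 2. Its log2 change was -3.23 without after first flush replicate 1 and -5.05 without replicate 2.

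Lists of general cell functions gave the following counts. Cell cycle, DNA replication and histone genes had 1 higher and 4 lower of 105 tested (median log2 change -0.05), ribosome biogenesis 3 and 1 of 86 (0.14), protein kinases 4 and 3 of 56 (0.09), and vesicle traffic 8 and 3 of 67 (-0.01). Ubiquitin conjugation had 8 higher and 3 lower of 71 (0.04), fatty acid oxidation 2 and 3 of 27 (0.10), sterol synthesis 2 and 2 of 23 (-0.02), and multidrug and ABC transporters 4 and 2 of 40 (-0.08). Glycolysis had 3 higher and 1 lower of 15 tested (0.41), the citrate and glyoxylate cycles 1 and 3 of 26 (-0.21), autophagy 0 and 1 of 10 (-0.09) and mitochondrial ribosomal proteins 0 and 2 of 8 (-0.18). At an unadjusted p under 0.05 in edgeR autophagy had 1 higher and 1 lower gene and mitochondrial ribosomal proteins 0 and 2, and DESeq2's Wald test gave the same calls as edgeR for both. These counts moved with single libraries. Leaving out after first flush replicate 1, after first flush replicate 2, after second flush replicate 1 and after second flush replicate 2 in turn gave 2, 15, 5 and 0 higher genes of vesicle traffic and 1, 10, 2 and 2 of ubiquitin conjugation. In the same order glycolysis had 2, 9, 1 and 2 higher genes, protein kinases 2, 8, 2 and 2, and cell cycle genes 0, 6, 1 and 0. The lower genes in that order were 1, 8, 1 and 2 of the cell cycle, 1, 6, 0 and 0 of the citrate and glyoxylate cycles, and 2, 11, 0 and 1 of the multidrug transporters. In each of the lists of fatty acid oxidation, sterol synthesis, ribosome biogenesis, autophagy and mitochondrial ribosomal proteins at most 5 genes were called in either direction in any of these repeats. Genes that build or split the fungal wall itself had 6 of 42 tested chitin and glucan genes higher and 0 lower in edgeR (median 0.12), with 9 and 4 at an unadjusted p under 0.05 and 4 and 3 by DESeq2's Wald test. There were 5 higher and 5 lower without after first flush replicate 2, and 2 higher without replicate 1 and 3 without either after second flush library. The glucan 1,3-beta-glucosidases had 1 higher and 1 lower of 13 (0.22). A chitin synthase (gene 191834), which makes the chitin of the hyphal wall, had 200 and 226 RPKM and then 358 and 363 RPKM, with close replicates and no overlap (0.84, SE 0.12, edgeR adjusted p = 0.0017). A chitinase (gene 188164) had 2.8 and 1.7 RPKM and then 14.4 and 19.3 RPKM (a 7.98-fold change, edgeR adjusted p = 0.012), and its adjusted p was 0.073, 0.056 and 0.06 without after first flush replicate 1, after first flush replicate 2 and after second flush replicate 2.

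The same sums were also read in the other 4 stages. Cellulose enzymes summed to 9894 and 7218 RPKM in the first flush libraries and to 692 and 404 RPKM in the second flush libraries, and hemicellulose enzymes to 8928 and 7362 RPKM and to 688 and 579 RPKM. The after second flush sums (5950 and 4976, 5220 and 4515 RPKM) lay between those and the first flush sums, and the after first flush sums near the second flush ones. Pectin enzymes had their highest sum of any library in after second flush replicate 1 (691 RPKM), followed by spawning replicate 2 (515 RPKM), and had only 151 and 159 RPKM in the first flush. Hydrophobins had in the after second flush libraries the lowest sums of all 12 libraries (5144 and 6612 RPKM), and the respiratory chain had in the after first flush libraries the highest (17383 and 16076 RPKM). These sums are descriptions, and the differences from the other stages were not tested.

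**Figure D5:**
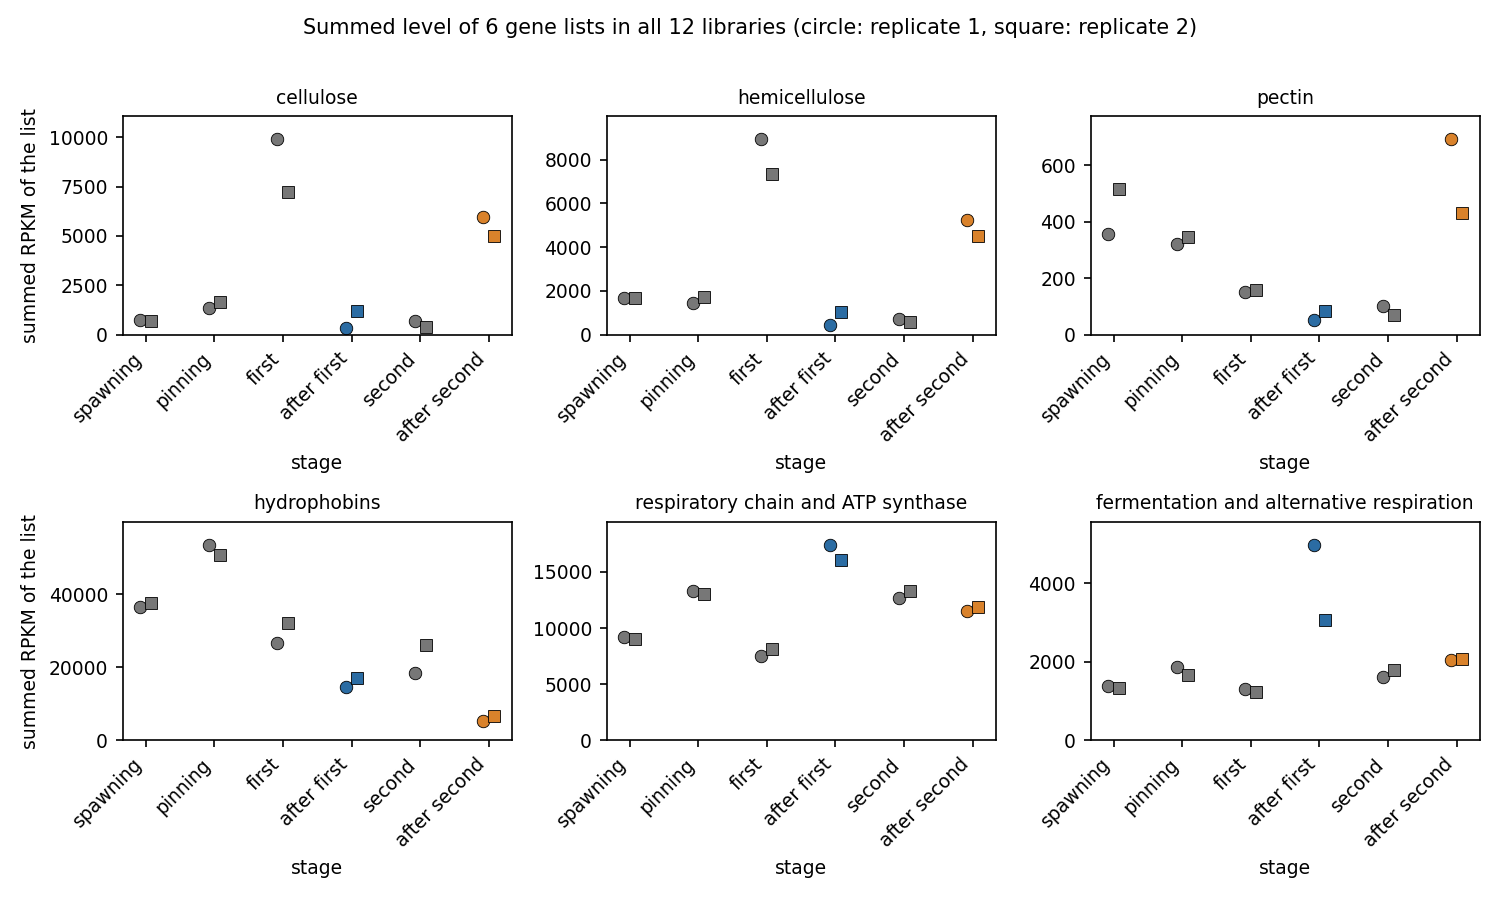
Summed RPKM of 6 gene lists in all 12 libraries, by stage in order of cultivation, with circles for replicate 1 and squares for replicate 2, blue for after first flush, orange for after second flush and grey for the other stages. Cellulose and hemicellulose enzymes are high in the first flush and after the second flush, pectin enzymes after the second flush and at spawning, and the fermentation list after the first flush (4967 and 3056 RPKM).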

How the data were processed

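RNA from mycelium-colonised compost at 6 stages (12 libraries, 2 a stage) was sequenced. Per the file headers, the deposited files hold 1 library each, with counts of uniquely placed reads per gene and RPKM computed by the authors; the aligner, genome build and strand setting were not given in the sources used here. Genes with no line in a library were taken as 0 reads. Descriptions came from the deposited annotation, and matches with an e-value over 1e-10 were not used. Of 9502 genes, 9440 (99.3%) matched locus tags of the H97 reference assembly.

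Counts were tested in R 4.3.3 with edgeR 4.0.16 (TMM factors 0.834 to 1.11, filterByExpr with a minimum count of 10 and total of 15, robust quasi-likelihood fit, 1 term per stage, 6 residual degrees of freedom). SE is the size of the log2 change over the root of F. Calls used a Benjamini-Hochberg adjusted p under 0.05. On simulated data (8759 genes, 50 changed per size) 24% of 1.5-fold, 88% of 2-fold and 100% of 4-fold changes were recovered, and 14 of 170 calls were false. The simulation drew all libraries around a shared mean per gene and planted no changes in the least read genes. It held no gap between the after first flush libraries, so its recovery does not carry over to genes with that gap. In the data exoglucanase 3 (gene 190390) was not called at an 8.3-fold change. Alternatives used DESeq2 1.42.0 and limma 3.58.1. RPKM levels are printed as deposited, and 2 values per stage give an SD of little precision, so both are given.

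The members and the 37 gene lists, taken by description words, were chosen with earlier results of these data known. The naming rule took called genes that did not overlap in RPKM, with at least 20 CPM in the higher stage: the 10 largest rises and falls with a described function, the 3 largest each way without a description, the largest called riser and faller and the most abundant gene of each list, and the 5 most abundant genes of each stage. Of 111 genes under this rule 81 were called. Other genes were named after their values were seen.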

Additional observations from a re-analysis of the deposited data

How the results depend on the processing

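The counts of 771 higher and 664 lower genes were 729 and 711 with DESeq2 size factors in edgeR, 792 and 706 by DESeq2's Wald test, 761 and 637 with no filter on low counts, and 706 and 608 without the first flush libraries, whose sample codes carry another letter. With the 4 libraries of the compared stages alone they were 123 and 100, and 15.3% of the calls were kept; fewer samples estimate the spread there. Leaving out 1 of the 4 libraries gave between 332 and 1190 higher and between 187 and 996 lower genes. In limma on log2(RPKM + 1) 586 were higher and 894 lower (39.6% higher, against 53.7%), and with 0.1 added in place of 1 they were 566 and 815. Of the 81 called named genes none changed sign. All 81 kept their call with DESeq2 size factors, by DESeq2's Wald test and with no filter, 24 with the 4 libraries alone, 77 without the first flush libraries, 47 and 79 without after first flush replicate 1 and 2, 40 and 43 without after second flush replicate 1 and 2, and 77 and 76 in the limma fits.

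The replicate numbers share no stated source. The deviations of same-numbered libraries from their stage means correlated at -0.24 between the compared stages, and 1 of 15 stage pairs was over 0.1 (-0.24 to 0.2). With the replicate block 730 genes were higher and 616 lower, and 77 of the 81 named calls remained. The adjusted p of the other 4 was 0.053 for the XCL-like lectin 75698, 0.055 for laccase-5 (gene 135711), 0.052 for gene 65431 and 0.055 for gene 210568, and beyond the naming rule it was 0.056 for tyrosinase gene 135027 and 0.062 for beta-D-xylosidase 4 (gene 219902). With the numbers of the compared stages crossed, a pairing chosen after seeing the data, there were 696 and 580.

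At 8408651 to 9216801 reads a library and 2 libraries a stage, 24% of simulated 1.5-fold changes were recovered, so smaller changes are often not detectable. The simulation held no gap between the after first flush libraries, so larger changes can be missed in genes with that gap.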
